A study of Mus musculus with 6 samples.

Results

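The transcription factors of the gonadal primordium are the genes that build the bipotential gonad together with Nr5a1 (also termed Sf1). They were taken by symbol from the deposited count table, as a list of Nr5a1, Nr0b1, Wt1, Gata4, Zfpm2, Cbx2, Lhx9, Emx2 and Six4, and all 9 were found among 24470 genes. All 9 also passed the filter on low counts, in a comparison of 15577 genes. Whole testes of E12.5 mouse embryos (E, embryonic day) were sampled, 3 control and 3 Ppp1r3c cKO (conditional knockout). All embryos were Ppp1r3c f/f, meaning that both copies of Ppp1r3c carried loxP sites. The cKO embryos carried Sf1-Cre in addition, a transgene in which Nr5a1 sequences drive Cre in progenitors of Sertoli cells and other somatic cells of the gonad, and the control embryos had no Cre. Each sample pooled 2 gonad pairs, on a C57BL/6 background. The question was whether the higher Nr5a1 count of the cKO samples was seen also in the regulators and partners of Nr5a1.

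The gonad arises as a thickening of the coelomic epithelium over the mesonephros, and forms in the same way in XX and XY embryos before sex determination. Nr5a1 encodes an orphan nuclear receptor that is needed for the gonads and the adrenal glands to form, and later switches on genes of steroid and AMH production. Wt1, Lhx9, Emx2, Cbx2, Gata4 and Six4 act upstream of Nr5a1 or beside it, and loss of many of them leaves the gonad absent or small. Zfpm2 (FOG2) is a cofactor that binds GATA4, and Nr0b1 (DAX1) is a receptor-like partner of NR5A1 that restrains its activity and is itself switched on by it.

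Promoter sequence was at hand for 4 of the 9 factors, from RefSeq on the build GRCm38.p6, which is the mm10 build of the count table. The 250 bases before the transcription start are shown for Nr0b1 (chrX:86191525-86191774, plus strand), as a gene downstream of Nr5a1, for Lhx9 (chr1:138842445-138842694, minus strand) and Emx2 (chr19:59458440-59458689, plus strand), whose levels had the same outlying sample, and for Six4 (chr12:73113246-73113495, minus strand), whose level went the other way. The Lhx9 start lies inside the span of the gene in the count table, so it belongs to a shorter transcript. Capitals mark the nuclear receptor core motif AGGTCA and the GATA motif GATAA, each searched on both strands.
Nr0b1: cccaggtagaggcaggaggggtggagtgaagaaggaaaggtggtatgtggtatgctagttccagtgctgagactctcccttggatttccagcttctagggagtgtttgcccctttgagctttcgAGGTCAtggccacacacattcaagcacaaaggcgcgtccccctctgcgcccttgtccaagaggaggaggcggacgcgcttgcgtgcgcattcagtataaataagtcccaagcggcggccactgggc
Lhx9: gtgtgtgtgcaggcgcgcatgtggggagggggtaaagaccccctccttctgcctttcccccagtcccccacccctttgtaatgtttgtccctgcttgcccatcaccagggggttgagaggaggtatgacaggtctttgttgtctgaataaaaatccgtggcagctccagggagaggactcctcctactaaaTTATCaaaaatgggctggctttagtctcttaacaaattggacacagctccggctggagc
Emx2: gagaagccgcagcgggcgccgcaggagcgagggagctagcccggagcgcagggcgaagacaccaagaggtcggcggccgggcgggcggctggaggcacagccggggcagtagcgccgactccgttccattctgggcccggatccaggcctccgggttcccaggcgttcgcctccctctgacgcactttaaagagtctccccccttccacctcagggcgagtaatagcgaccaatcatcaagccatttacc
Six4: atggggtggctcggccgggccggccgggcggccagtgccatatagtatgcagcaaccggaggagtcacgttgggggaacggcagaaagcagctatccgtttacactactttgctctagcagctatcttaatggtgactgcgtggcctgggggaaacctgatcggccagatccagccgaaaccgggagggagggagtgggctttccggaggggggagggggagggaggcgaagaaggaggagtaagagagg

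Among these stretches, AGGTCA was found only before Nr0b1, where it began 126 bases upstream of the start. It occurs in 14.0% of 32851 promoter stretches of this length. GATAA was found only before Lhx9, on the opposite strand and beginning 59 bases upstream, and occurs in 22.6% of all promoter stretches. The homeodomain motif TAATTA, present in 4.84% of promoter stretches, was in none of the 4. These matches describe the letters and do not show that a factor binds there.

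The library totals ranged from 16139487 (control replicate 1) to 44145158 counts. Levels are given as CPM, the usual depth-normalized count unit, here with library totals scaled by the TMM method. Ppp1r3c, the targeted gene, was at 22.1 to 24.4 CPM in the control and 4.71 to 5.96 CPM in the cKO samples, so the genotype labels held in every sample. The Sertoli cell genes Sox9 and Amh had mean levels of 165 and 765 CPM in the control samples. cKO replicate 3 stood apart. Xist, the RNA that coats the silenced X chromosome of female cells, reached 12534 counts (379 CPM) in that library, while the other 5 had 6 to 41 counts. Values that this library moved most are also given without it.

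Of the factors, Nr5a1 alone was higher in cKO testes at an FDR below 0.05 (edgeR quasi-likelihood test, Benjamini-Hochberg over all 15577 genes). With 1 of 9 called, the share among all tested genes was 0.0385%. Nr5a1 was put on the list with its higher count already known, so its own call is no support. None of the other 8 was called by edgeR. Among the other 8, the fold changes were smaller than that of Nr5a1 in 7, and Six4 went the other way. The median log2 fold change of the 9 factors was 0.19, against -0.0034 over all tested genes. At an unadjusted p below 0.05, 5 of 9 factors were higher in cKO testes (Nr5a1, Wt1, Zfpm2, Gata4 and Emx2), where 5.56% of all genes were, and 1 of 9 was lower (Six4), where 5.80% were. The count of 5 became 3 without cKO replicate 3, where the share over all genes was 3.54%, and those were Nr5a1, Wt1 and Zfpm2. It was also 3 without control replicate 3, where the share was 3.62%. In 4 of 9 factors all cKO samples lay above all control samples, as in 8.42% of all tested genes. DESeq2 called 2 of the 9, Nr5a1 and Wt1, against 0.779% of the 14243 genes to which it gave an adjusted p. Each of these counts includes Nr5a1. Apart from it, Wt1, Zfpm2, Gata4 and Emx2 were higher at an unadjusted p. The groups were apart for Wt1, Zfpm2 and Emx2, and DESeq2 called Wt1. With 3 samples against 3, the smallest p of an exact permutation test on 1 measure is 0.1.

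**Figure D1:**
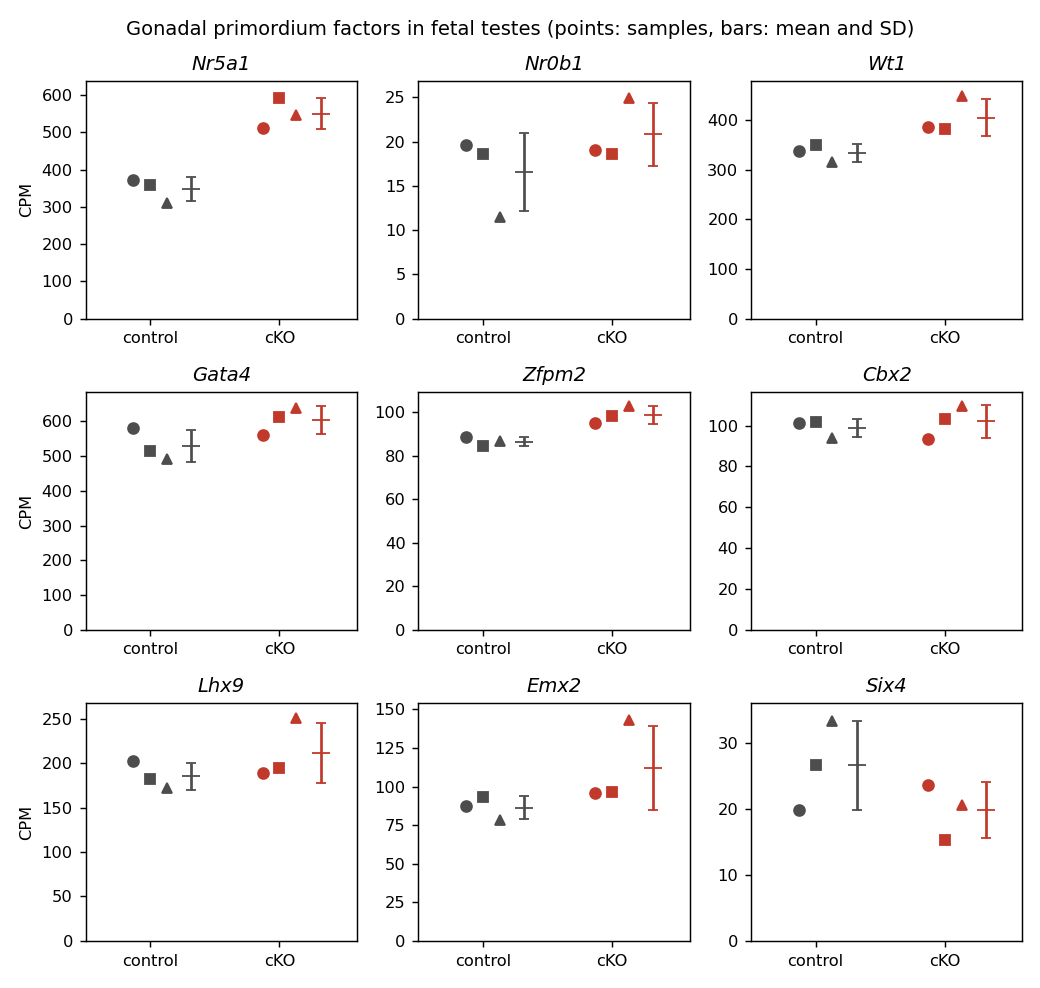
CPM of the 9 factors in each of 3 control (grey) and 3 cKO (red) samples, with circles, squares and triangles for replicates 1, 2 and 3 and bars for the mean and SD of each group. The groups are apart for Nr5a1, Wt1, Zfpm2 and Emx2, and cKO replicate 3 holds the highest Lhx9 (251 CPM) and Emx2 (143 CPM) levels.

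Nr5a1 (chromosome 2, 38692656 to 38714542, transcribed from the minus strand) was at 372, 360 and 311 CPM in control replicates 1 to 3, and 512, 593 and 546 CPM in cKO replicates 1 to 3. The groups were well apart. The Nr5a1 count was thus higher in cKO testes, with means of 347 ± 32.3 and 550 ± 40.8 CPM (SD, n = 3 each). The log2 fold change was 0.66 (95% interval 0.48 to 0.84, SE 0.0801, edgeR FDR 0.0401). The size of the change hardly depended on the tool or on single samples, with log2 fold changes of 0.58 to 0.72 when single samples were left out. The edgeR call did: it held in 1 of 6 runs that left out a single sample (without cKO replicate 1, FDR 0.0295), and the FDR reached 0.212 without control replicate 3. The call was also lost with a stricter filter (edgeR FDR 0.0503) and with a block for the replicate number (FDR 0.267 by edgeR). DESeq2 called Nr5a1 in all 6 such runs, with a highest adjusted p of 1.39e-07.

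The Cre of the cKO samples is made with Nr5a1 sequences, so the genes around Nr5a1 were examined. Within 1 Mb of Nr5a1 the table held 13 tested genes, of which Nr5a1 and Nr6a1 were called. Nr6a1, which encodes an orphan receptor of early embryonic and germ cells (also termed GCNF), lies 8.83 kb from Nr5a1. Its level was 12.0, 19.4 and 16.1 CPM in the control samples and 61.1, 62.3 and 54.7 CPM in the cKO samples, which is 1.88 on the log2 scale (SE 0.140, edgeR FDR 0.00152). On the other side, at -48.8 kb, the proteasome subunit gene Psmb7 had a log2 difference of -0.084 (SE 0.0792, edgeR FDR 0.703). The next tested gene beyond Nr6a1, Olfml2a at 217 kb, had -0.066 (SE 0.160, edgeR FDR 0.903). The LIM homeobox gene Lhx2, a relative of Lhx9 in this window, was at 0.540 and 0.681 CPM in control and cKO testes and was not called (edgeR FDR 0.835). Farther away, the polarity gene Crb2 at -894 kb had a log2 difference of 0.32 (SE 0.115, edgeR FDR 0.382) and Dennd1a at -405 kb one of 0.18 (SE 0.0709, edgeR FDR 0.400), both with all cKO samples above all control samples. The ribosomal protein gene Rpl35 had all cKO samples below (log2 difference -0.20, SE 0.0630, edgeR FDR 0.377). None of these 3 was called, each with an unadjusted edgeR p below 0.05. Because all cKO samples and no control sample carried the transgene, reads from Nr5a1 sequences in the transgene, a change of the resident gene and an effect of Ppp1r3c loss cannot be told apart.

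**Figure D2:**
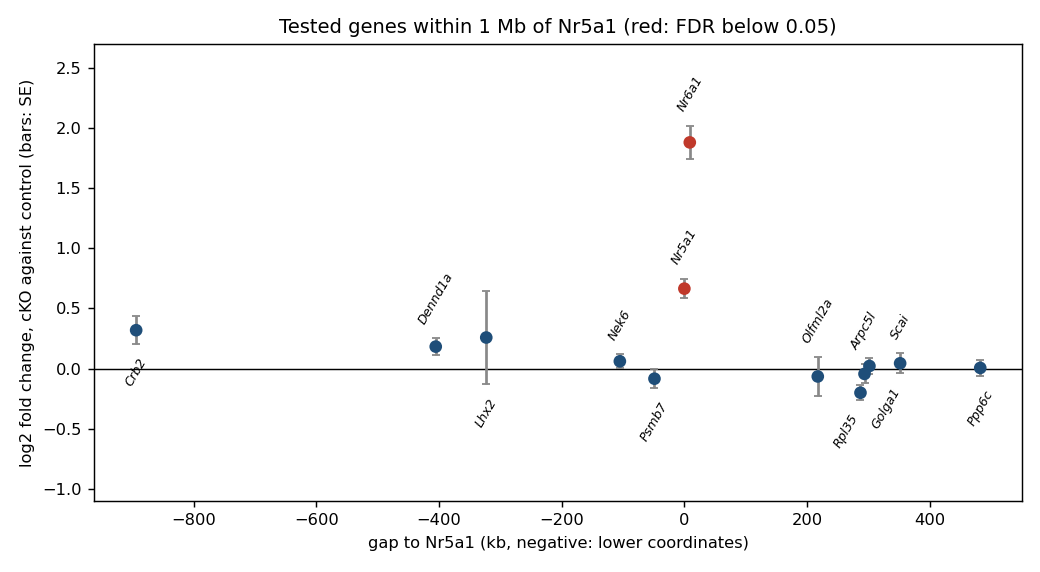
Log2 fold change (cKO against control, bars SE) of the 13 tested genes within 1 Mb of Nr5a1, by their gap to Nr5a1 in kb (negative toward lower coordinates). Nr6a1 (1.88) and Nr5a1 (0.66) are the called genes, in red, and the other 11 lie between -0.20 and 0.32.

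The regulators that act upstream of Nr5a1 were examined next. Wt1, a zinc finger factor needed for the gonad and kidney to form, lies on chromosome 2 from 105126529 to 105173614. Its level was 337, 350 and 315 CPM in the control and 385, 381 and 449 CPM in the cKO samples. The groups did not overlap, and cKO replicate 3 was the highest sample. Group means were 334 ± 17.5 and 405 ± 38.1 CPM (SD, n = 3 each). The difference on the log2 scale was 0.28 (95% interval 0.11 to 0.44, SE 0.0738), which edgeR did not call (FDR 0.377) and DESeq2 called (adjusted p 0.0459). Without cKO replicate 3 it was 0.20 (edgeR FDR 0.633, DESeq2 adjusted p 0.434). The DESeq2 call was also lost when any control sample was omitted (adjusted p 0.0643, 0.110 and 0.101 without control replicates 1, 2 and 3).

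Lhx9 (chromosome 1, 138825186 to 138847579), a LIM homeobox factor of the gonadal epithelium, was at 202, 182 and 172 CPM in the control and 189, 195 and 251 CPM in the cKO samples. The groups overlapped, with cKO replicates 1 and 2 inside the control range. It differed by 0.19 on the log2 scale (SE 0.107, 95% interval -0.049 to 0.43, edgeR FDR 0.517), and 0.052 without cKO replicate 3. Emx2 (chromosome 19, 59458690 to 59465357), a homeobox factor without which the gonads and kidneys fail to form, had the same outlying sample. Its level was 87.5, 93.1 and 78.3 CPM in the control and 96.1, 96.3 and 143 CPM in the cKO samples. cKO replicates 1 and 2 lay just above the highest control. On the log2 scale the difference was 0.37 (SE 0.146, 95% interval 0.046 to 0.70, edgeR FDR 0.402), and 0.16 without cKO replicate 3.

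Markers of pre-granulosa cells, the supporting cells of the ovary, were high in the same library. Summed over 7 genes of a marker list, they were at 88.4 to 107 CPM in the control samples, 108 and 105 CPM in cKO replicates 1 and 2, and 286 CPM in cKO replicate 3. All 7 had a higher mean in cKO testes, and 5 of 7 without cKO replicate 3. Fst, which encodes the activin antagonist follistatin, reached 50.9 CPM in this library and 2.02 CPM at most in the other 5, and Foxl2, a transcription factor that defines these cells, reached 7.56 CPM against 0.431 to 1.22 CPM. The part of XX tissue in the Lhx9 and Emx2 levels was not tested. In whole tissue, a change in the number of cells of a type and a change in RNA per cell cannot be told apart.

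**Figure D3:**
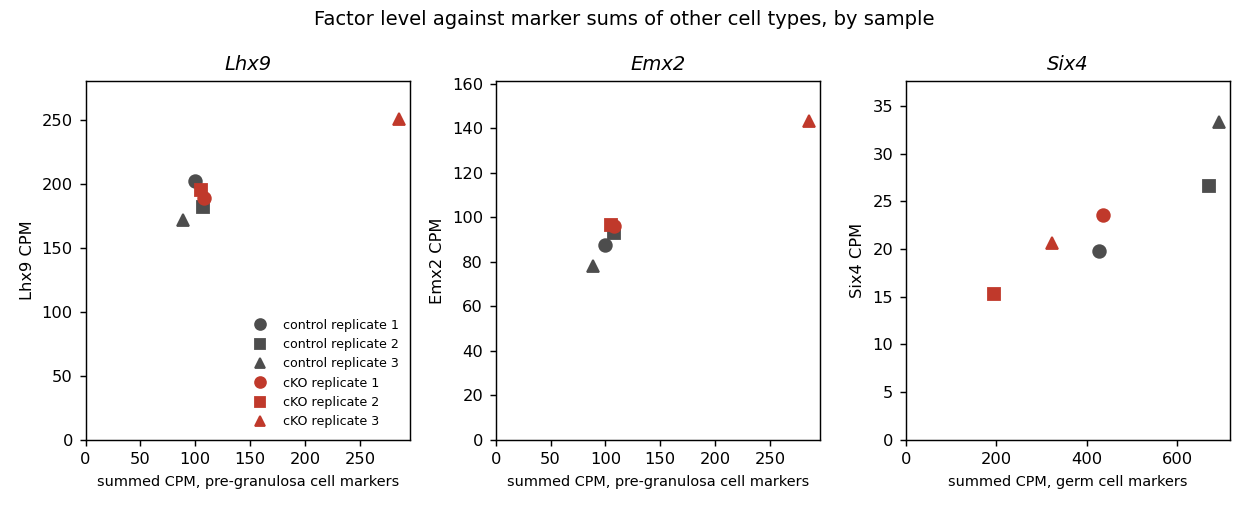
Lhx9 and Emx2 CPM against the summed CPM of 7 pre-granulosa cell markers, and Six4 CPM against the summed CPM of 8 germ cell markers, for 3 control (grey) and 3 cKO (red) samples. cKO replicate 3 lies far from the rest for the first pair of genes (286 CPM of markers), and Six4 is lowest in cKO replicate 2, where germ cell markers are also lowest (194 CPM).

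Cbx2 (chromosome 11, 119023021 to 119031275), a chromodomain subunit of the Polycomb complex PRC1 that is needed for XY gonads to become testes, was at 101, 102 and 93.8 CPM in the control and 93.7, 103 and 109 CPM in the cKO samples. The groups overlapped throughout. Cbx2 differed by 0.046 on the log2 scale (SE 0.0696, 95% interval -0.11 to 0.20, edgeR FDR 0.836), and it was -0.0065 without cKO replicate 3. The interval leaves out a change of the size measured for Nr5a1. Of 11 other PRC1 subunits, 5 had a higher and 6 a lower mean in cKO testes, with a median log2 fold change of -0.0055, and none was called by edgeR or DESeq2. At an unadjusted p below 0.05, none of them was higher (5.56% of all tested genes were) and 2 were lower (5.80% of all were). These were Phc1, with a log2 fold change of -0.23 (edgeR FDR 0.377), and Cbx7, with -0.78 (edgeR FDR 0.380).

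Six4 (chromosome 12, 73100259 to 73113245), a homeobox factor that acts on Nr5a1 in the early gonad, was the factor with a lower mean. Its level was 19.8, 26.6 and 33.3 CPM in the control and 23.5, 15.2 and 20.6 CPM in the cKO samples. The groups overlapped, since control replicate 1 lay below cKO replicates 1 and 3. The log2 fold change was -0.44 (SE 0.194, 95% interval -0.87 to -0.0033, edgeR FDR 0.439), and it ranged from -0.60 to -0.25 when single samples were left out. Its relative Six5 was at 57.9 and 60.6 CPM in control and cKO testes (log2 fold change 0.073, edgeR FDR 0.830).

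Germ cell markers differed between samples in nearly the same order as Six4. Their sum over 8 genes was 427, 669 and 692 CPM in the control and 436, 194 and 322 CPM in the cKO samples. All 8 had a lower mean in cKO testes, each at an unadjusted p below 0.05, where 5.80% of all tested genes were lower. None of the 8 was called by edgeR and 2 were by DESeq2 (0.779% of all). Control replicate 3 was highest and cKO replicate 2 lowest in both Six4 and the marker sum. The order differed only for control replicate 1 and cKO replicate 3. The part of germ cells in the Six4 level was not tested.

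Among the partners of NR5A1, Gata4 (chromosome 14, 63198914 to 63245271) encodes a zinc finger factor that is needed for the genital ridge to thicken. It was at 580, 516 and 491 CPM in the control and 560, 614 and 637 CPM in the cKO samples. The groups overlapped through control replicate 1. The log2 fold change was 0.19 (SE 0.0753, 95% interval 0.022 to 0.36, edgeR FDR 0.404). Its relative Gata6, which is also found in the somatic gonad, was at 77.0, 75.8 and 65.2 CPM in the control and 85.7, 85.5 and 114 CPM in the cKO samples, without overlap (log2 fold change 0.39, SE 0.116, edgeR FDR 0.377, DESeq2 adjusted p 0.0603). cKO replicate 3 was again the highest sample, and without it the Gata6 value was 0.24 (SE 0.0839, edgeR FDR 0.633).

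Zfpm2 (chromosome 15, 40655042 to 41104592), the GATA4 cofactor, showed little spread between samples. It was at 88.5, 84.3 and 86.6 CPM in the control and 94.98, 98.1 and 103 CPM in the cKO samples. All cKO samples lay above all control samples, by a small margin. The log2 fold change was 0.19 (SE 0.0567, 95% interval 0.064 to 0.32, edgeR FDR 0.377). The upper end of the interval lies below the lower end of that of Nr5a1. Its relative Zfpm1 differed by 0.17 (SE 0.0776, edgeR FDR 0.452).

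Nr0b1 (chromosome X, 86191775 to 86195947) was the gene of this list that is itself switched on by NR5A1. It was at 19.6, 18.6 and 11.5 CPM in the control and 19.0, 18.6 and 24.9 CPM in the cKO samples. In 2 samples of each group the level lay near 19 CPM, and the difference between means came from a low control replicate 3 and a high cKO replicate 3. Between the group means, the log2 fold change was 0.34 (SE 0.193, 95% interval -0.089 to 0.78, edgeR FDR 0.520). Omitting control replicate 3 gave 0.12, and omitting cKO replicate 3 gave 0.20. The interval takes in both no change and a change as large as that of Nr5a1.

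**Figure D4:**
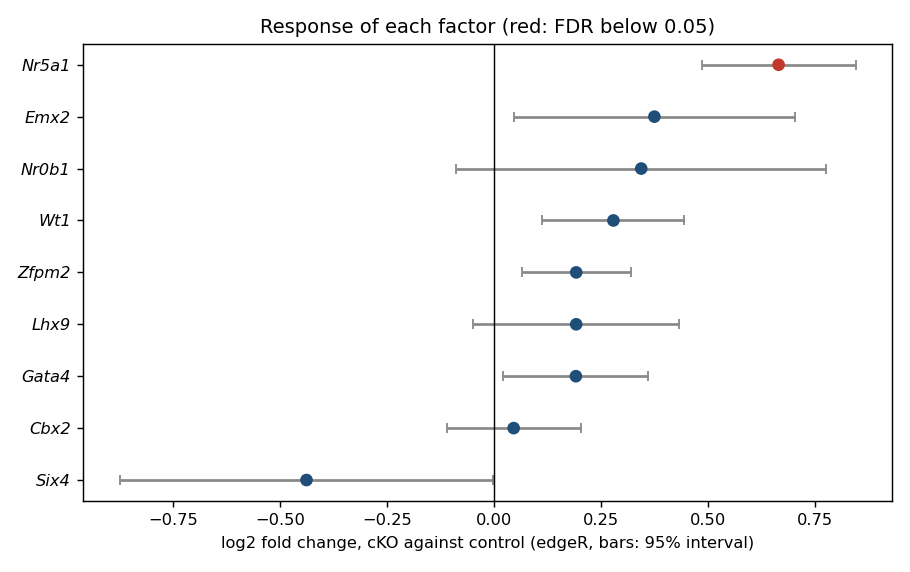
Log2 fold change of cKO against control for each of the 9 factors by edgeR, with 95% intervals. Nr5a1 (0.66, red) is the factor with an FDR below 0.05, and the intervals of Nr0b1, Lhx9 and Cbx2 include 0.

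To compare the response of Nr5a1 with that of each other factor directly, the log2 ratio of Nr5a1 to each of the other 8 was taken within every sample, where it does not depend on the scaling of libraries. In 6 of 8 ratios all cKO samples lay above all control samples. Each of these had an exact two-sided permutation p of 0.1 (0.133 after Benjamini-Hochberg adjustment over 8 ratios), the smallest that this design allows. All 8 ratios share Nr5a1, whose higher count was known beforehand, so a higher ratio would be found with any steady gene. Ratios to genes outside the list were not taken. The ratio to Gata4 was -0.64, -0.52 and -0.66 in the control and -0.13, -0.049 and -0.22 in the cKO samples. It was thus higher by 0.47 (SE 0.0664). The ratio to Cbx2 was higher by 0.62 (SE 0.0736), to Lhx9 by 0.48 (SE 0.147), to Zfpm2 by 0.48 (SE 0.0998), and to Six4 by 1.08 (SE 0.382). The ratio to Wt1 was 0.14, 0.041 and -0.020 in the control and 0.41, 0.64 and 0.28 in the cKO samples, higher by 0.39 (SE 0.114).

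The ratios to Emx2 and Nr0b1 overlapped between the groups. For Emx2 the difference was 0.31 (SE 0.209, exact permutation p 0.4), with cKO replicate 3 (1.93) below all 3 control samples (1.95 to 2.09). Omission of cKO replicate 3 gave 0.51, and omission of cKO replicate 2 gave 0.16. For Nr0b1 it was 0.31 (SE 0.226, exact permutation p 0.2), with control replicate 3 (4.75) above cKO replicate 3 (4.45). This difference was 0.18 without cKO replicate 2 and 0.47 without control replicate 3. With 3 samples against 3, the exact permutation p could not go below 0.1. The test therefore showed a difference in response for none of the 8 ratios.

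**Figure D5:**
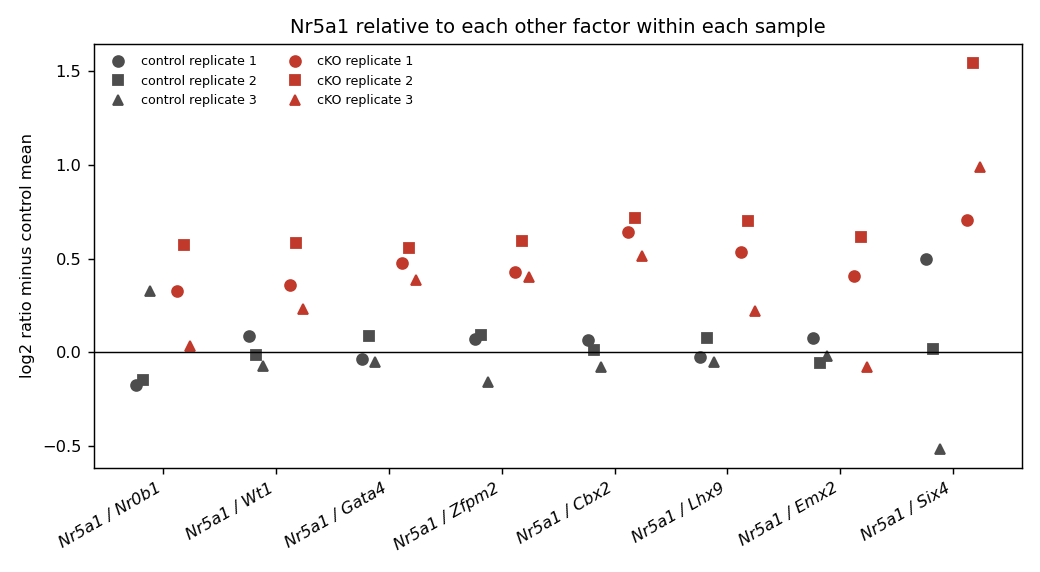
Log2 ratio of Nr5a1 to each of the other 8 factors in every sample, less the mean of the 3 control samples, with control in grey and cKO in red. The cKO samples lie above the control samples for all factors but Nr0b1 and Emx2.

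Levels of different factors were compared per kilobase of exon (RPKM, from CPM and the union of exons in GENCODE M21). In the control samples Gata4 was at 145 ± 12.7 RPKM (SD, n = 3), Nr5a1 at 109 ± 10.2 and Wt1 at 99.3 ± 5.22. Emx2 (29.6 ± 2.57), Cbx2 (26.0 ± 1.16), Lhx9 (23.9 ± 1.99), Zfpm2 (13.6 ± 0.337), Nr0b1 (9.15 ± 2.43) and Six4 (2.45 ± 0.624) followed. Nr5a1 and Wt1 overlapped between samples, as did Cbx2 and Lhx9, while all Gata4 values (135 to 159 RPKM) lay above all Nr5a1 values (97.7 to 117 RPKM). In the cKO samples Nr5a1 was at 161, 187 and 172 RPKM and Gata4 at 154, 168 and 175 RPKM. The Nr5a1 value, in which any reads from the transgene are included, thus reached that of Gata4, and their order differed between cKO samples. Exon lengths came from GENCODE and counts from RefSeq genes, so levels of different factors compare only roughly. The Six4 level was the lowest per length in both groups.

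Other genes of the pathway were taken from lists. Of 20 other genes with a role in the early gonad or in sex determination, 16 had a higher and 4 a lower mean in cKO testes, with a median log2 fold change of 0.13. None was called by edgeR. At an unadjusted p below 0.05, 7 of the 20 were higher, where 5.56% of all tested genes were. At this threshold 1 of the 20 was lower, where 5.80% of all were. Gata6, with the values above, was among the 7. Gadd45g, Cited2, Kdm3a and Numb were also among them, with log2 fold changes of 0.34, 0.25, 0.20 and 0.20 in that order, all with an edgeR FDR of 0.380 or above. The count of 7 was 4 without cKO replicate 3, 2 without control replicate 2 and 3 without control replicate 3. The shares over all genes in these runs were 3.54%, 3.74% and 3.62%. Without cKO replicate 3, Gadd45g, Cited2, Kdm3a and Numb had log2 fold changes of 0.30, 0.31, 0.093 and 0.11. Cited2, a coactivator that works with WT1 on Nr5a1, was at 79.9 and 94.9 CPM in control and cKO testes.

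Genes that NR5A1 is known to switch on lay to both sides of 0. Of 14 such genes, 6 had a higher and 8 a lower mean in cKO testes, with a median log2 fold change of -0.055, and none was called by edgeR or DESeq2. Without cKO replicate 3 there were 8 higher and 6 lower, with a median of 0.041. Sox9, the Sertoli cell determinant, had 0.28 (SE 0.0919, edgeR FDR 0.377). It was the 1 gene of the 14 at an unadjusted p below 0.05, where 5.56% of all tested genes were higher. Cyp26b1, the retinoic acid degrading enzyme of the fetal testis, had 0.17 (SE 0.0962, edgeR FDR 0.515). Without cKO replicate 3, Sox9 had 0.37 and Cyp26b1 0.26 (edgeR FDR 0.633 each). In that run these 2 of the 14 were higher at an unadjusted p below 0.05, as were 3.54% of all genes. The count was 0 without control replicate 2 or 3, where the shares were 3.74% and 3.62%. The steroid genes Star, Cyp11a1, Cyp17a1 and Hsd3b1 had -0.26, -0.31, -0.41 and -0.27, each with an edgeR FDR of 0.645 or above. Omitting cKO replicate 3 gave -0.036, -0.045, -0.12 and -0.011 for these genes, in the same order. These 4 are also markers of fetal Leydig cells, whose summed level over 8 markers was 332 to 542 CPM in the control and 235 to 485 CPM in the cKO samples, lowest in cKO replicate 3.

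Of 14 family relatives of the factors 13 were tested, 10 with a higher and 3 with a lower mean and a median log2 fold change of 0.081, and none was called by edgeR. Without cKO replicate 3, 7 were higher and 6 lower, with a median of 0.038. Nr5a2, the close relative of Nr5a1, was at 10.03 and 6.39 CPM in control and cKO testes. The difference was -0.67 on the log2 scale (SE 0.232, edgeR FDR 0.380), opposite in sign to that of Nr5a1. The groups overlapped, with 6.83, 12.3 and 10.9 CPM in the control and 7.68, 4.76 and 6.75 CPM in the cKO samples. Like the germ cell marker sum, Nr5a2 was lowest in cKO replicate 2, and the part of germ cells in its level was not tested. Nr0b2 was at 3.63 and 3.64 CPM.

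Markers of other cells that hold these factors were compared between the groups. The summed level of 10 Sertoli cell markers was 1729 to 2179 CPM in the control and 1636 to 2204 CPM in the cKO samples, with 4 markers higher and 6 lower in mean (6 higher and 4 lower without cKO replicate 3). At an unadjusted p below 0.05, 2 of the 10 were higher, where 5.56% of all tested genes were, and none was lower. These were Sox9 (0.28) and Inhbb (0.25), each with an edgeR FDR of 0.377. The count was 2 without cKO replicate 3 and 0 without control replicate 2 or 3. For the adrenal cortex, which also expresses Nr5a1, 5 markers summed to 11.0 to 12.1 CPM in the control and 10.3 to 12.7 CPM in the cKO samples, with Sult2a1 at 0 in every sample and Cyp21a1 at 0.543 CPM or less. For the coelomic epithelium, 5 of 6 markers were found in the table and summed to 203 to 232 CPM in the control and 211 to 250 CPM in the cKO samples. Msln, a surface protein of mesothelium, was at 8.28 CPM in cKO replicate 1 and 0.521 CPM at most elsewhere. Interstitial markers summed to 1534 to 1779 CPM in the control and 1602 to 1875 CPM in the cKO samples. Mesonephros markers summed to 21.9 to 28.2 CPM in the control and 20.4 to 39.0 CPM in the cKO samples, with the highest sum in cKO replicate 3. The sums of each of these 5 lists overlapped between the groups.

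The mesonephros list nonetheless leaned one way. Of its 5 tested markers 4 were higher in cKO testes, with a median log2 fold change of 0.52, and Lhx1, which takes a large share of the sum, was lower (-0.78, SE 0.361, edgeR FDR 0.450). In 3 of them all cKO samples lay above all control samples, as in 8.42% of all tested genes. Each had an unadjusted edgeR p below 0.05, where 5.56% of all were higher, and none was called. These were Pax2 (log2 difference 0.78, edgeR FDR 0.390) and Pax8 (0.52, edgeR FDR 0.377), paired-box factors of the nephric duct, and Calb1 (2.14, edgeR FDR 0.377), a calcium-binding protein. Their levels were low, with means of 0.837 and 1.41 CPM for Pax2 and 9.09 and 12.98 CPM for Pax8 in control and cKO testes. Calb1 was at 2.04 CPM at most in the control samples and 2.77, 2.39 and 11.2 CPM in cKO replicates 1 to 3. Without cKO replicate 3, the 3 log2 values were 0.55, 0.32 and 1.08, and the median of the list was 0.55. The part of mesonephros tissue in the levels of the factors was not tested.

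The genes whose log2 CPM followed Nr5a1 most closely over the 6 samples were Trib1, Pafah2 and Galnt17, with Pearson correlations of 0.996, 0.992 and 0.992. Their log2 fold changes were 0.19, 0.29 and 0.48, and none was called by edgeR (FDR 0.377 to 0.386). Of the other factors, Zfpm2 (0.907), Wt1 (0.849) and Gata4 (0.847) had the highest and Six4 (-0.78) the lowest correlation with Nr5a1. Zfpm2 ranked 209 among all tested genes. These correlations describe 6 samples that fall into the 2 groups and share library depths.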

How the data were processed

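Whole E12.5 testes were measured by RNA-seq in 3 control and 3 Ppp1r3c cKO samples, grouped by their titles. The authors made stranded mRNA libraries, aligned read pairs to mm10 with STAR (2.5) and counted them per RefSeq gene with featureCounts (Subread 1.5.0-p1), using strand. The deposited values are raw counts, and no column of sample values was left unused. None of the 9 factors overlaps another gene of the table.

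From these counts, all genes were fitted together with edgeR (4.0.16) in R 4.3.3 (filterByExpr with a minimum count of 10, TMM, quasi-likelihood test, cKO over control), and p-values were adjusted by Benjamini-Hochberg, with an FDR below 0.05 termed called. SE and 95% intervals came from the F statistic. The log2 CPM used a prior count of 2. The factors and the 12 other gene lists were chosen with earlier results of these data known. Named are the 9 factors, Ppp1r3c, Xist, tested genes near Nr5a1, the genes of lowest p of a list and the 3 genes most like Nr5a1, and further genes (Gata6, Six5, Zfpm1, Nr0b2, Cyp26b1, the steroid genes, Cited2, Gadd45g, Kdm3a, Numb, Msln, Pax2, Pax8, Calb1, Lhx1, Fst, Foxl2) were named after their values were seen. Alternatives were DESeq2 (1.42.0), limma-voom (limma 3.58.1), RLE and upper-quartile factors, no filter, a stricter one (3 or more samples with 1 CPM or more), a block for the replicate number, and omission of each sample in turn. DESeq2 without single samples, the gene lists without single samples, and the count of factors at an unadjusted p were added after seeing the data. Some genes of the lists are not reported here by name. The tests were tested on simulated data. P-values measure the spread between these pooled samples.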

Additional observations from a re-analysis of the deposited data

How the results depend on the processing

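DESeq2 called 57 genes higher and 54 lower, and 2 of the 9 factors. limma-voom and no filter each gave 2 genes lower. The stricter filter gave 3 genes higher, 0 factors and 1 gene near Nr5a1, with an Nr5a1 log2 fold change of 0.67 (edgeR FDR 0.0503). The cause was not tested. Without single samples, edgeR called 1 to 5 genes higher, 1 to 3 lower, 0 to 1 factors and 0 to 2 genes near Nr5a1. The Nr5a1 log2 fold change was then 0.58 to 0.72, the number of factors higher at an unadjusted p below 0.05 was 3 to 6 (3.54% to 5.98% of all genes), and the Cbx2 log2 fold change, near 0 throughout, was -0.0065 to 0.10. The Nr5a1 call was lost without each sample other than cKO replicate 1. The directions of the other 8 factors were otherwise the same in all alternatives, and RLE and upper-quartile factors left the Nr5a1 call in place.

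Both groups carry replicate numbers 1 to 3. After the group means were removed, the samples of a number correlated by -0.20, -0.27 and -0.13. Samples of unlike numbers were not compared in this way, so these values cannot settle whether the samples of a number are paired. With a replicate block in the model, edgeR called 2 genes higher, 0 factors and 1 gene near Nr5a1, the Nr5a1 log2 fold change was 0.67 (edgeR FDR 0.267), and 3 factors were higher at an unadjusted p below 0.05, as were 3.13% of all genes.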
